A study of Mus musculus with 3 samples.

Results

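*Grm8/Clca3a2* cells are epithelial cells of the mouse larynx that carry RNA of *Grm8*, a metabotropic glutamate receptor, together with RNA of *Clca3a2*, a member of the calcium-activated chloride channel regulator family. They were chosen by their own counts. A droplet barcode was kept if it held 500 to 8000 detected genes, 1000 to 40000 unique molecular identifiers (UMIs, 1 per captured RNA molecule) and at most 8% mitochondrial UMIs, and if it did not hold UMIs of all of *Krt5*, *Ltf*, *Scgb3a1* and *Dcn*. Of these 41033 cells, 29050 held a UMI of the epithelial adhesion gene *Epcam*. Those with at least 1 UMI each of *Grm8* and *Clca3a2*, none of *Sult1b1*, under 40 UMIs of *Krt5* and *Krt14* together and under 20 of *Krt13* per 10000 UMIs of the cell were the *Grm8/Clca3a2* cells, 1267 in all.

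The study asked which laryngeal cells are labelled by *Lrig1*, a gene of epithelial stem cells that encodes a negative regulator of ErbB receptors. All 3 libraries came from Lrig1CreERT2/+; ROSA26CAG-LSL-tdTomato/+ mice, in which a tamoxifen-inducible Cre recombinase expressed from the *Lrig1* locus switches on the red protein tdTomato. Tamoxifen was injected on 2 consecutive days, tissue was taken 1 day after recombination, and cells were sorted by tdTomato with gates set on wild-type and ROSA26CAG-LSL-tdTomato/+ mice. Each library pooled 10 larynges, from 5 males and 5 females, so single animals cannot be told apart, and the age of the mice is not given in the sources used here. There was 1 condition only. The comparisons are therefore between groups of cells within the same 3 libraries, every one of them of sorted cells from tamoxifen-treated reporter mice. The cells were sorted for tdTomato, which *Lrig1*-driven Cre switches on, and the purity of the sort was not tested here.

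The larynx lies where the pharynx, airway and oesophagus meet, and its lining changes from stratified squamous epithelium on the vocal folds to pseudostratified airway epithelium around them. Basal cells of both linings express *Trp63* and *Krt5* and are fixed to the basement membrane by hemidesmosomes. Squamous cells that leave the basal layer switch to other keratins, such as *Krt13* and *Krt4*, strengthen their desmosomes and build a cornified envelope. The receptor encoded by *Grm8* couples to inhibitory G proteins and is best known from presynaptic terminals, and Clca proteins are secreted or membrane-bound proteins related to metalloproteases, of which Clca1 modulates the chloride channel *Ano1*. *Gata3* and *Pax1* are transcription factors of the pharyngeal pouches, *Gata3* being a regulator of epidermis as well, and *Tmprss11b* belongs to a cluster of membrane-bound serine proteases of squamous and airway surfaces.

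The 3 libraries held 12545, 7141 and 21347 kept cells with medians of 9740, 13876 and 12208 UMIs per cell. They shared 153 barcodes among the kept cells. Of these, 8 belonged to *Grm8/Clca3a2* cells, and none marked such a cell in 2 libraries at once. The libraries were not integrated, and library 3 stood apart in places. One cluster of epithelial cells with 4.75% of its cells from library 3 held 13.4%, 27.8% and 0.572% of the *Grm8/Clca3a2* cells of libraries 1, 2 and 3. Doublet scores marked 4.61%, 6.25% and 14.1% of the *Grm8/Clca3a2* cells, against 8.66%, 5.28% and 14.0% of the other *Epcam*-positive cells. These cells stayed in. Without them there were 1123 *Grm8/Clca3a2* cells.

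*Grm8/Clca3a2* cells numbered 217, 176 and 874 in the 3 libraries. They made up 3.03% (2.65 to 3.45 as a 95% Wilson interval for counting error alone), 3.48% (3.01 to 4.02) and 5.20% (4.87 to 5.54) of the *Epcam*-positive cells, a mean of 3.90% ± 1.15 (SD, n = 3). The share was highest in library 3, whose interval did not meet those of the other two. Leaving out barcodes with UMIs of all of *Krt5*, *Ltf*, *Scgb3a1* and *Dcn* took 1707 of 14252, 386 of 7527 and 6267 of 27614 barcodes in libraries 1, 2 and 3. The intervals do not cover this unequal loss, and its part in the shares was not tested. The *Grm8/Clca3a2* cells were deeper than their neighbours, with median UMIs of 17338, 20914 and 16721, against 12966.5, 17812 and 14198 in the other *Epcam*-positive cells. A deeper cell is more likely to show a UMI of both genes. With every cell first thinned to 5000 UMIs, the same rule kept 564 cells, 2.13% ± 0.764 (SD, n = 3) of the *Epcam*-positive cells.

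The counts that chose the cells are a description and were not tested. *Grm8* had a median of 5 UMIs per *Grm8/Clca3a2* cell and a maximum of 48, and 18.1% of the cells held a single *Grm8* UMI. *Clca3a2* had a median of 2 UMIs and a maximum of 57, and 34.8% of the cells held a single one. Both genes stood at 1 UMI in 101 cells, 7.97%. The sum of *Krt5* and *Krt14* had a median of 11.5 UMIs per 10000. At that limit the highest value inside was 39.97 and the lowest outside was 40.16, so the cells just inside and just outside hardly differed. *Krt13* was absent from 70.4% of the cells, with 17.6 the highest value inside its limit and 20.2 the lowest outside. The *Krt5* and *Krt14* limit took the count from 1364 to 1276 cells, and the *Krt13* limit then took it to 1267.

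Within the same keratin limits and without *Sult1b1*, on average over the libraries 41.8% of the cells with *Clca3a2* also held *Grm8*, and 24.3% of the cells with *Grm8* also held *Clca3a2*. Of all cells within these limits, 20.4% held *Grm8* and 11.7% held *Clca3a2* on average. Independent detection within quintiles of UMIs per cell would put both genes in 103, 102 and 492 cells of libraries 1, 2 and 3. The counts seen were 217, 176 and 874. How many of these cells hold both genes through independent detection alone was not tested. Free RNA in the droplets can give a UMI to a cell that does not express a gene. Cells that should lack both genes are therefore a guide to background. The gated cells given here were also chosen to hold no *Epcam* UMI, so their shares may understate the background in *Epcam*-positive cells. Among 3211 fibroblast-gated cells with a median of 10702 UMIs, 2.37% held *Grm8*, 0.467% held *Clca3a2* and 0.0311%, 1 cell, held both. Among 2007 muscle satellite-gated cells, at a median of 7615 UMIs, the shares were 1.44%, 0.797% and 0.0997%. Among the 29050 *Epcam*-positive cells, at a median of 14648.5 UMIs, the shares were 21.1%, 12% and 5.02%.

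For comparison, the other 27783 *Epcam*-positive cells were split into groups that do not overlap. Within the keratin limits and without *Sult1b1* there were 3512 cells with *Grm8* only, 1591 with *Clca3a2* only and 16144 with neither. Outside them there were 2275 *Sult1b1*+ cells, 3077 cells high in *Krt5* and *Krt14* and 1184 cells high in *Krt13*. UMIs were summed per library and group. Levels are UMIs per 1000000 UMIs of the sum (CPM), and the log2 fold changes and adjusted p-values come from edgeR's quasi-likelihood test after Benjamini-Hochberg adjustment across the genes tested, at a threshold of 0.05. The levels of different genes are not compared. The 3 libraries were sampled as pools of animals, and the p-values measure the spread between pools only.

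*Gata3*, *Pax1* and *Tmprss11b*, which the choice of cells did not use, were all higher in the *Grm8/Clca3a2* cells than in the other *Epcam*-positive cells. They were named as markers with earlier results of these data known, so their rise is not independent support for the markers. *Gata3* stood at 88.8, 76.9 and 111 CPM in the *Grm8/Clca3a2* cells and at 14.0, 15.1 and 17.3 CPM in the other cells. The groups did not overlap, and the log2 fold change was 2.61 (SE 0.15, edgeR adjusted p = 0.000937). *Pax1* stood at 44.3, 81.5 and 53.4 CPM against 12.5, 17.5 and 13.9 CPM. It was highest in library 2 in both groups, and the log2 fold change was 2.05 (SE 0.24, edgeR adjusted p = 0.00787). *Tmprss11b* stood at 159, 156 and 151 CPM against 36.5, 48.1 and 49.5 CPM. Its level in the *Grm8/Clca3a2* cells hardly varied between libraries, and the log2 fold change was 1.82 (SE 0.13, edgeR adjusted p = 0.0014).

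The same held cell by cell. A *Gata3* UMI was found in 63.4% ± 3.09 (SD, n = 3) of the *Grm8/Clca3a2* cells and in 12.9% ± 2.15 of the other *Epcam*-positive cells. With every cell thinned to 5000 UMIs the shares were 31.6% and 6.20%. For *Pax1* they were 35.1% and 10.6% unthinned and 20.5% and 5.07% thinned, and for *Tmprss11b* 70.5% and 25.5% unthinned and 45.1% and 14.0% thinned. At least 1 of the 3 markers was found in 85.7% ± 1.14 of the *Grm8/Clca3a2* cells, and all 3 in 21.4% ± 4.02. In the cells with neither *Grm8* nor *Clca3a2* those shares were 24.3% ± 4.08 and 0.736% ± 0.271. In the fibroblast-gated cells *Gata3* was found in 15.8%, *Pax1* in 2.83% and *Tmprss11b* in 0.623%, so a *Gata3* UMI by itself did not set epithelial cells apart.

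Cells with only *Grm8* or only *Clca3a2* detected lay between the *Grm8/Clca3a2* cells and the cells with neither for *Gata3*. A cell without a UMI of a gene may still express it. With cells thinned to 5000 UMIs, *Grm8* was found in 72.4% and *Clca3a2* in 61.0% of the *Grm8/Clca3a2* cells. The part of missed detection in the levels below was not tested. *Gata3* stood at 39.7, 34.8 and 42.6 CPM in the *Grm8*-only cells, at 32.7, 35.4 and 36.7 CPM in the *Clca3a2*-only cells and at 8.92, 9.16 and 9.87 CPM in the cells with neither. In each library the level with both genes was above either alone. *Tmprss11b* went more with *Grm8*. It stood at 100, 91.5 and 99.2 CPM in the *Grm8*-only cells and at 28.4, 49.9 and 38.8 CPM in the *Clca3a2*-only cells. *Pax1* did likewise in libraries 1 and 3, with 30.6, 29.8 and 29.3 CPM in the *Grm8*-only cells and 15.1, 29.6 and 19.8 CPM in the *Clca3a2*-only cells. The levels of *Grm8* and *Clca3a2* themselves, chosen to be above 0, differed less. *Grm8* stood at 397, 329 and 399 CPM with *Clca3a2* and at 363, 296 and 338 CPM without it. *Clca3a2* stood at 277, 199 and 249 CPM with *Grm8* and at 258, 166 and 228 CPM without it.

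**Figure D1:**
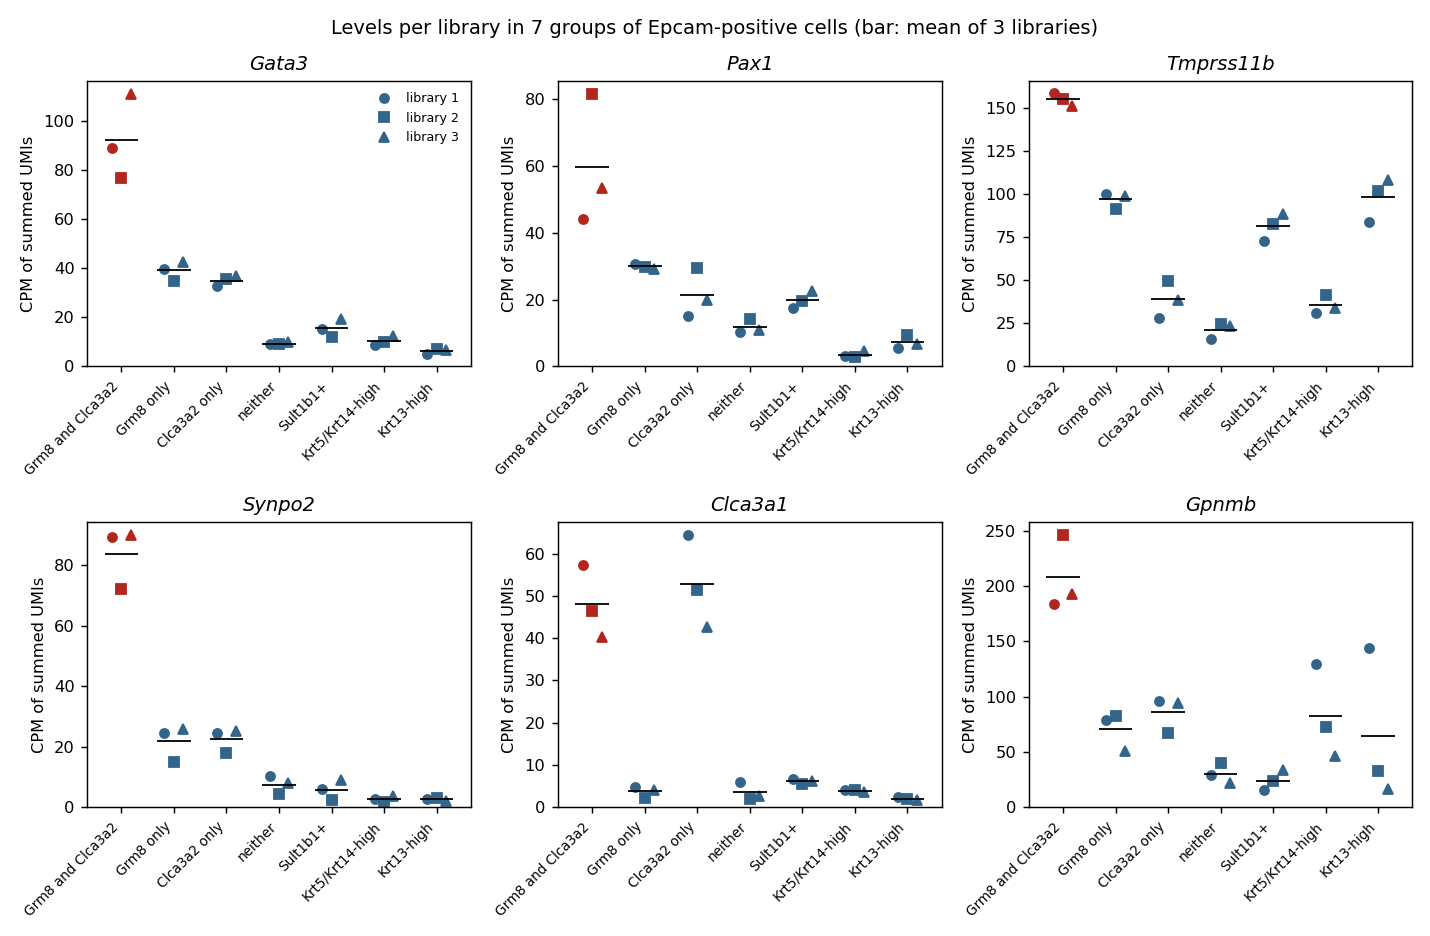
Each point is the level of a gene in 1 library, in CPM of the summed UMIs, in 7 groups of *Epcam*-positive cells, and each bar is the mean of the 3 libraries. *Gata3*, *Pax1*, *Tmprss11b*, *Synpo2* and *Gpnmb* were higher in the *Grm8/Clca3a2* cells (red) than in all other groups of the same library, while *Clca3a1* was at 40.4 to 57.2 CPM with both genes and at 42.6 to 64.4 CPM with *Clca3a2* only.

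Across the whole transcriptome 17987 genes were tested against the other *Epcam*-positive cells, and 788 passed, 4.38% of those tested. Of these, 295 were higher (1.64%) and 493 lower (2.74%) in the *Grm8/Clca3a2* cells. The libraries are pools that gave both groups of cells, and with the library as a block 3188 genes passed, 17.7%, of which 1075 were higher (5.98%) and 2113 lower (11.7%). Counts of gene lists are read against these shares. The 788 genes were all among them. Without the barcodes of high doublet scores 1365 passed. The median log2 fold change over all genes was -0.02. Leaving out library 1, 2 or 3 left 59, 44 and 279 genes past the threshold with 2 libraries a group, and of the 788 genes all that could be tested kept their direction.

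The genes with the largest rises were led by long noncoding RNAs and by *Synpo2*. *5430427M07Rik*, a long noncoding RNA, stood at 21.9, 20.4 and 25.1 CPM in the *Grm8/Clca3a2* cells and at 2.05, 2.16 and 1.56 CPM in the other *Epcam*-positive cells (log2 fold change 3.58, SE 0.20, edgeR adjusted p = 0.000937). *Gm13219*, another, stood at 28.3, 23.1 and 36.1 CPM against 2.42, 2.87 and 3.17 CPM (log2 fold change 3.41, SE 0.20, edgeR adjusted p = 0.00123). *Synpo2* encodes an actin-binding protein best known from muscle. It stood at 89.3, 72.2 and 90.02 CPM against 11.3, 6.36 and 10.4 CPM (log2 fold change 3.20, SE 0.22, edgeR adjusted p = 0.00133), with no overlap between the groups. *Dio2*, the deiodinase that turns thyroxine into the active thyroid hormone, stood at 35.9, 20.1 and 30.7 CPM against 6.60, 2.54 and 3.42 CPM (log2 fold change 2.82, SE 0.38, edgeR adjusted p = 0.0122). *Gm26512*, which is noncoding, rose by 3.10 (SE 0.28, edgeR adjusted p = 0.00361).

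The rest of the 10 largest rises were of protein-coding genes. *Gpnmb*, a transmembrane glycoprotein known from melanosomes and lysosomes, stood at 184, 247 and 193 CPM against 51.6, 47.6 and 35.8 CPM (log2 fold change 2.23, SE 0.18, edgeR adjusted p = 0.00205). *Phex*, a membrane endopeptidase of phosphate balance, stood at 28.3, 10.9 and 25.1 CPM against 5.81, 2.98 and 3.62 CPM (log2 fold change 2.41, SE 0.39, edgeR adjusted p = 0.0189). Library 2 was low in *Phex* in both groups. *Khdrbs2*, an RNA-binding regulator of splicing, stood at 44.3, 25.8 and 42.0 CPM against 12.1, 7.06 and 8.19 CPM (log2 fold change 2.07, SE 0.26, edgeR adjusted p = 0.00963). *Clca3a1* and *Gata3* complete the list.

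Several of these genes lie close together in the genome (GRCm39, GENCODE M39 annotation). *Clca3a1* (chr3:144435438-144466738) and *Clca3a2* (chr3:144502320-144525255) are neighbours on the minus strand, 35.6 kb apart with no coding gene wholly between. *Gm26512* (chr12:90704915-90836009, plus strand) overlaps the start of *Dio2* (chr12:90691322-90705819, minus strand) by 905 bases. *5430427M07Rik* (chr12:91012618-91053188, plus strand) begins 307 kb from *Dio2* with no coding gene wholly between. It overlaps *Cep128* on the other strand, and a gene that overlaps either end of a gap was not counted as between. *Gm13219* (chr2:9357242-9452487, plus strand) lies 409 kb from *Gata3* (chr2:9861889-9894845, minus strand), again with no coding gene wholly between. Whether the counting used strand is not given in the sources used here, so reads of overlapping genes on opposite strands may not be told apart.

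*Clca3a1* and *Clca3a2* are near copies. Their canonical transcripts are identical at 96.5% of 3425 aligned bases, and 10.3% of the 90-base windows of *Clca3a2* also occur in *Clca3a1*. None of the shared windows lay in the last 500 bases, where a 3′ library takes most of its reads, but the split of reads between the copies remains uncertain. *Clca3a1* stood at 57.2, 46.4 and 40.4 CPM in the *Grm8/Clca3a2* cells and at 9.74, 5.12 and 5.83 CPM in the other *Epcam*-positive cells (log2 fold change 2.82, SE 0.27, edgeR adjusted p = 0.00398). It went with *Clca3a2* and not with *Grm8*. The *Clca3a2*-only cells stood at 64.4, 51.4 and 42.6 CPM, while the *Grm8*-only cells, at 4.85, 2.24 and 4.01 CPM, stood about where the cells with neither did, at 6.04, 1.82 and 2.53 CPM. *Phex* showed the reverse order, with 26.5, 7.81 and 15.4 CPM in the *Grm8*-only cells and 4.63, 6.5 and 2.81 CPM in the *Clca3a2*-only cells.

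The promoters of the 14 genes that chose, mark or lead these cells were searched for GATA motifs, the letters that factors of the *Gata3* family bind, from 250 bases before to 50 bases after the transcript start. The letters searched, on both strands, were AGATAA with its variant AGATAG, and TGATAA with its variant TGATAG. A match was found in 7 of the 14, namely *Clca3a2*, *Clca3a1*, *Dio2*, *Gm13219*, *5430427M07Rik*, *Phex* and *Khdrbs2*, and in 28.8% of all 21757 coding promoters. Of the 14, *Gm13219*, *5430427M07Rik* and *Gm26512* are noncoding, while that share is of coding genes only. The 14 were picked by the rule, as markers or by their rise in these data, and *Clca3a1* and *Clca3a2* are near copies. No test was made against that share. *Clca3a2* is a gene of the rule, and its level is no finding. *Clca3a2* held 2 matches and *Clca3a1* held 3. At least 2 matches were found in 7.25% of coding promoters. The windows below, of 30 bases on the minus strand of chromosome 3 in GRCm39, have the motif in capitals (CTATCA is TGATAG read on the other strand). The first and the third are shown for their distance from the start of the canonical transcript. Their matches begin 164 and 163 bases upstream of it. For *Clca3a1* that start lies inside the annotated gene, so the distances are not alike when taken from the gene ends. The letters around the matches differ, and no shared site is shown. The second is the other match of *Clca3a2*, 78 bases upstream. The other matches of *Clca3a1*, 68 and 41 bases upstream, lie inside the annotated gene and are not shown.
*Clca3a2*, chr3:144525402-144525431: ggaggatcttacAGATAAggtacatcaagc
*Clca3a2*, chr3:144525316-144525345: atatcagcatttCTATCAaattatgcaaat
*Clca3a1*, chr3:144466748-144466777: cagcagccaatcTGATAAgtttccatttct
A match is a run of letters and no measure of binding, and no binding data were analysed here.

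The largest falls were of secretory genes, against a mixed group of cells. The 10 goblet markers summed to 376 to 510 CPM in the *Grm8/Clca3a2* cells and 285 to 550 CPM in the *Grm8*-only cells. In the cells with neither gene they reached 1374 to 2499 CPM, but in the *Krt13*-high cells 199 to 346 CPM. The 9 gland markers outside the rule stood at 6174 to 8499 CPM, against 998 to 1938 CPM in the *Krt13*-high cells. Low secretory levels were thus not particular to the *Grm8/Clca3a2* cells. *Tff2*, a mucus-associated trefoil peptide, stood at 14.3, 5.70 and 9.98 CPM in the *Grm8/Clca3a2* cells and at 958, 448 and 222 CPM in the other *Epcam*-positive cells (log2 fold change -5.74, SE 0.63, edgeR adjusted p = 0.00617). *Muc5b*, a gel-forming mucin, stood at 2.43, 0.815 and 1.63 CPM against 136, 65.2 and 41.6 CPM (log2 fold change -5.61, SE 0.61, edgeR adjusted p = 0.00617). *Dcpp2*, a product of salivary-type glands, stood at 1.89, 1.90 and 1.37 CPM against 84.2, 41.7 and 50.04 CPM (log2 fold change -5.19, SE 0.37, edgeR adjusted p = 0.00141). None of these groups overlapped. *Scgb1a1* of club cells fell by 4.92 on the log2 scale, *Dmbt1* of glands by 4.75, *Sbpl*, a neighbour of the Dcpp genes, by 4.78 and *Gp2*, a glycoprotein of acinar and M cells, by 5.94, with edgeR adjusted p between 0.00195 and 0.0166. *Cxcl13*, a chemokine that attracts B cells, and *Scg2*, a protein of secretory granules, had 3 UMIs each in all *Grm8/Clca3a2* cells. The level in the other cells was 180-fold (95% interval of the counts 61.6 to 874) and 122-fold (41.7 to 592) that of the *Grm8/Clca3a2* cells. With the cells chosen after thinning to 5000 UMIs, these 2 genes did not pass, at log2 fold changes of -6.17 (edgeR adjusted p = 0.105) and -11.32 (edgeR adjusted p = 0.087).

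**Figure D2:**
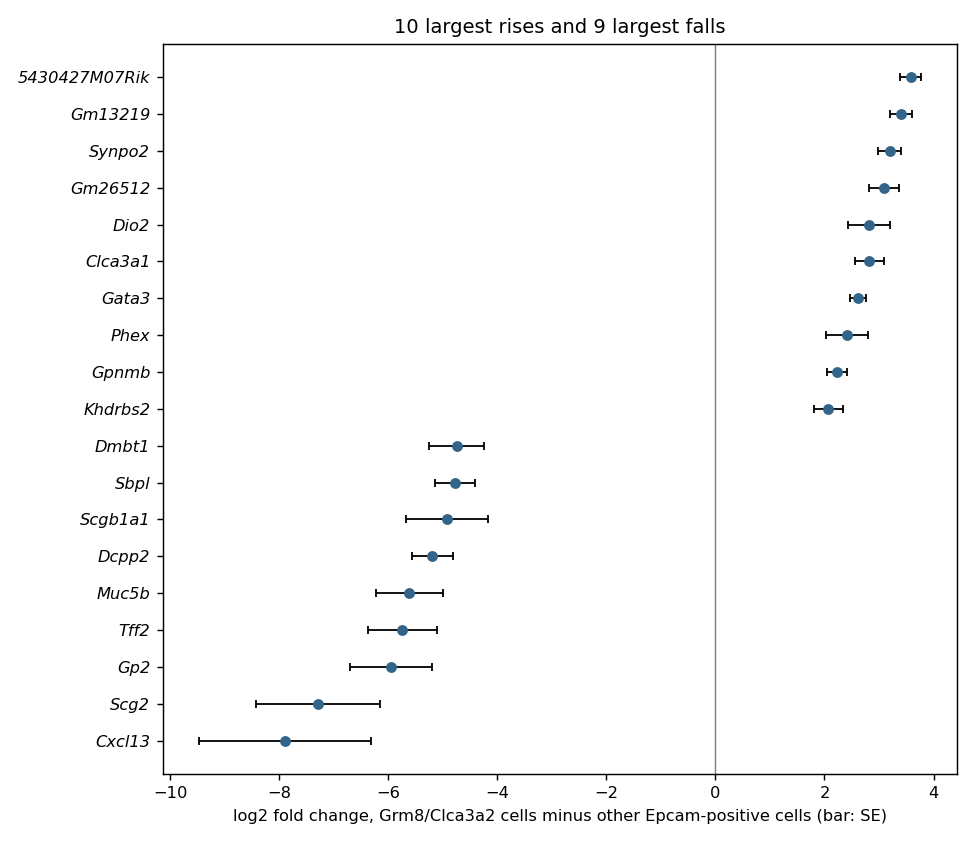
The x axis gives the log2 fold change of the *Grm8/Clca3a2* cells against the other *Epcam*-positive cells, with bars of 1 SE, for the 10 largest rises and 9 of the largest falls among genes past the threshold. Rises ran from 2.07 (*Khdrbs2*) to 3.58 (*5430427M07Rik*) and falls from -4.75 (*Dmbt1*) to -7.89 (*Cxcl13*), and the falls with few UMIs in the *Grm8/Clca3a2* cells have the widest bars.

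The name suprabasal, given to these cells beforehand, went with their markers in part, depending on the cells they were set against. Of the 14 tested markers of suprabasal squamous cells, none was higher and 2 were lower in the *Grm8/Clca3a2* cells than in the other *Epcam*-positive cells (1 higher and 8 lower with the library as a block), with a median log2 fold change of -1.21. Summed without *Krt13*, they reached 1834 to 2011 CPM, against 1744 to 2442 CPM in the other cells and 5806 to 8632 CPM in the *Krt13*-high cells, and *Rhcg* and *Sprr3* were at 0. Against the cells of the same keratin limits with neither gene that sum was higher in each library, at 1886, 1834 and 2011 CPM against 1157, 1241 and 1497 CPM. Against the *Krt5/Krt14*-high cells it was lower in each library, as those stood at 2758, 2363 and 2903 CPM. The *Sult1b1*+ cells stood above it too, at 2389, 2508 and 2749 CPM. The *Grm8*-only cells, at 1878, 1769 and 1991 CPM, stood close to the *Grm8/Clca3a2* cells. *Krt4*, a keratin of suprabasal squamous cells that is itself part of the sum, stood at 490.4 ± 62.6 CPM (SD, n = 3) in the *Grm8/Clca3a2* cells, 370.5 ± 88.4 CPM in the other *Epcam*-positive cells and 171 ± 40.6 CPM in the cells with neither gene. A *Krt4* UMI was found in 74.9%, 42.6% and 30.9% of them with cells thinned to 5000 UMIs. Its log2 fold change was 0.43 against the other *Epcam*-positive cells (edgeR adjusted p = 0.219, and 0.00945 with the block) and 1.56 against the cells with neither gene (edgeR adjusted p = 0.00284). In the *Sult1b1*+ cells *Krt4* stood at 515.5 ± 60.1 CPM (SD, n = 3), near its level in the *Grm8/Clca3a2* cells. Only 4 of the 14 suprabasal markers had a log2 fold change above 0 against the other *Epcam*-positive cells. Of the 10 tested basal markers, 3 were higher and none lower (6 and none with the block). Summed without *Krt5* and *Krt14* they reached 6775 to 8005 CPM, within the range of 5494 to 8579 CPM of the other cells. Against the cells with neither gene the basal sum too was higher in each library, at 6970, 6775 and 8005 CPM against 4434, 5006 and 7314 CPM. *Trp63*, the transcription factor of basal cells, stood at 766, 702 and 754 CPM against 538, 556 and 698 CPM in the other *Epcam*-positive cells (log2 fold change 0.34, SE 0.12, edgeR adjusted p = 0.158, and 0.0148 with the block). *Trp63* was detected in 97.0% ± 1.11 (SD, n = 3) of the *Grm8/Clca3a2* cells. The cells are therefore called by their 2 leading genes alone.

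A minority of the genes that anchor cells to the basement membrane rose. Of 21 genes of hemidesmosomes and basement membrane, 7 rose and none fell (14 and 3 with the block), with a median of 0.28. *Lama3*, a chain of the anchoring laminin, stood at 143, 124 and 145 CPM against 78.0, 76.5 and 92.9 CPM (log2 fold change 0.77, SE 0.10, edgeR adjusted p = 0.0111). *Itgb4*, the integrin of hemidesmosomes, stood at 397, 391 and 395 CPM against 236, 266 and 288 CPM (log2 fold change 0.61, SE 0.09, edgeR adjusted p = 0.0174). Both were above the other cells in each library without overlap, and *Frem2*, *Itga3*, *Itgb1* and *Itga6* rose as well, *Frem2* without passing in cells chosen after thinning (0.63, edgeR adjusted p = 0.104). Of 21 genes of desmosomes and adherens junctions, 1 rose and 2 fell (5 and 3 with the block). *Pkp4*, a plakophilin-related protein, rose by 0.59, while the desmosomal cadherin *Dsc3* stood at 8.10, 11.4 and 11.5 CPM against 47.0, 41.5 and 58.6 CPM (log2 fold change -2.19, SE 0.18, edgeR adjusted p = 0.00206).

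Cornified envelope and keratin genes moved in both directions. Of 23 envelope and barrier genes, 1 rose and 3 fell (2 and 11 with the block). The one that rose was *Ivl*, the envelope protein involucrin, at 6.75, 8.15 and 8.81 CPM against 1.83, 1.80 and 2.83 CPM (log2 fold change 1.91, SE 0.28, edgeR adjusted p = 0.0153). In cells chosen after thinning its log2 fold change was 1.61 (edgeR adjusted p = 0.148). *Dmkn*, a secreted epidermal protein, fell by 2.17 and *Calml3*, a calmodulin-like protein of epithelia, by 2.05. Of 19 keratins other than those of the rule, 2 rose and 3 fell (4 and 7 with the block). *Krt7* and *Krt19*, keratins of simple and airway epithelia, rose by 0.76 and 0.46, *Krt19* without passing in cells chosen after thinning (0.34, edgeR adjusted p = 0.25). *Krt18* fell by 1.5 and *Krt23* by 1.02. *Krt6a*, a keratin of wounded and squamous epithelium, fell by 2.15, but against the cells of the same keratin limits with neither gene its log2 fold change was 0.06 (edgeR adjusted p = 0.897).

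**Figure D3:**
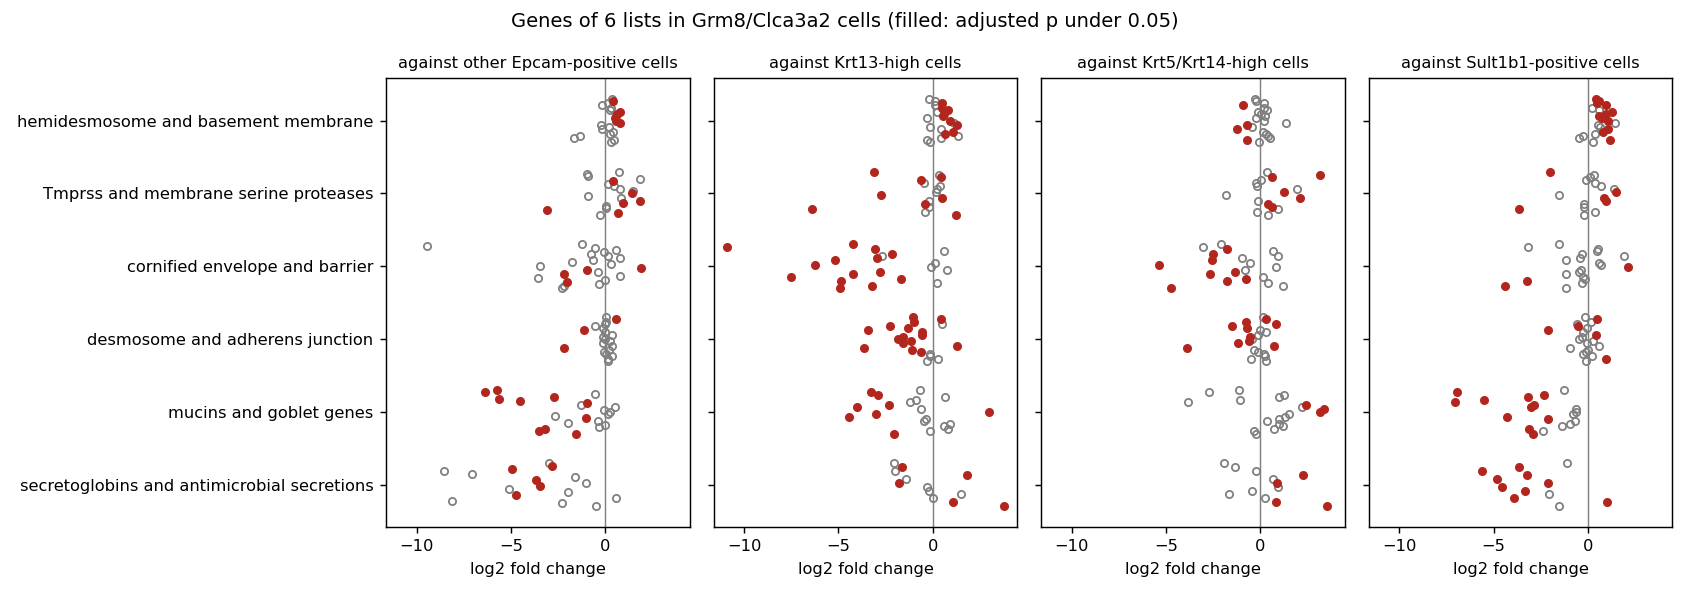
Each circle is the log2 fold change of 1 gene in the *Grm8/Clca3a2* cells against 4 groups of *Epcam*-positive cells, by gene list, and filled circles passed an edgeR adjusted p of 0.05. Hemidesmosome genes lay mostly to the right of 0 against the other *Epcam*-positive cells, with 7 of 21 filled, and cornified envelope genes lay far to the left against the *Krt13*-high cells, with 14 of 20 filled.

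Transcription factors of the pharynx and foregut were divided. Of 24 tested, 3 rose and 3 fell (7 and 6 with the block). *Gata3*, *Pax1* and *Tbx1* rose, *Tbx1* being a regulator of pharyngeal development. *Nkx2-1*, which sets airway and thyroid identity, stood at 16.5, 20.4 and 31.4 CPM against 67.9, 55.8 and 83.8 CPM (log2 fold change -1.51, SE 0.23, edgeR adjusted p = 0.0175), with no overlap. *Eya4*, a transcriptional cofactor, fell by 1.83, and *Hoxa2* fell too. Of 30 factors of stratified epithelium, none rose and 3 fell (4 and 10 with the block), namely *Elf5*, *Zfp750* and *Hopx*. *Elf5* did not pass in cells chosen after thinning (edgeR adjusted p = 0.104). *Zfp750*, which drives terminal differentiation, fell by 1.57 (SE 0.15, edgeR adjusted p = 0.00377). Of 31 Notch pathway genes, 2 rose and 2 fell (6 and 7 with the block). The ligand *Jag2* rose by 0.57 and the protease *Adam10* by 0.36, while the target *Hes1* fell by 0.48 and *Notch3* by 1.25. *Notch1* stood at 66.4, 72.2 and 66.7 CPM against 79.9, 77.2 and 89.5 CPM (edgeR adjusted p = 0.169, and 0.0431 with the block).

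The families of the leading genes were read member by member. Of 19 tested Tmprss and related membrane proteases, 5 rose and 1 fell (8 and 3 with the block). Besides *Tmprss11b*, its cluster neighbours *Tmprss11e*, at 47.2, 40.7 and 26.7 CPM against 15.2, 18.4 and 9.34 CPM (log2 fold change 1.42, SE 0.31, edgeR adjusted p = 0.0486), and *Tmprss11a*, at 573, 426 and 523 CPM against 222, 254 and 345 CPM (log2 fold change 0.92, SE 0.18, edgeR adjusted p = 0.0367), rose without overlap. *Tmprss11d*, of the same cluster, had a log2 fold change of -0.92 (edgeR adjusted p = 0.273, and 0.0132 with the block). *Prss22* and *Tmprss2* rose by 0.67 and 0.40, and *Prss27*, a pancreasin, fell by 3.09. In cells chosen after thinning *Prss22* and *Prss27* did not pass (edgeR adjusted p = 0.297 and 0.168). Among 18 tested inhibitors of serine proteases none rose and 4 fell (1 and 8 with the block). *Spink5*, the inhibitor of epidermal kallikreins, stood at 5.94, 3.8 and 4.76 CPM against 50.04, 25.3 and 42.4 CPM (log2 fold change -3.0, SE 0.29, edgeR adjusted p = 0.00421).

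Of 5 tested Clca genes, *Clca3a1* and *Clca2* rose. *Clca2*, a Clca gene of squamous epithelium, stood at 107, 84.2 and 86.2 CPM against 48.2, 57.2 and 58.7 CPM (log2 fold change 0.78, SE 0.12, edgeR adjusted p = 0.0189). *Clca3b* had a log2 fold change of -0.10 (edgeR adjusted p = 0.909), and *Clca1*, a goblet cell product, one of -1.62 (edgeR adjusted p = 0.316, and 0.00315 with the block). Of 20 chloride channels 1 rose and none fell (3 and 1 with the block). It was *Ano1*, the calcium-activated channel that *Clca1* is known to modulate, at 127, 130 and 125 CPM against 59.3, 64.2 and 60.9 CPM (log2 fold change 1.08, SE 0.07, edgeR adjusted p = 0.00133). The levels of *Ano1* were close to each other across the libraries within each group.

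Of 16 other glutamate receptor genes none rose, and 1 rose with the block. *Gria4*, a subunit of AMPA receptors, stood at 130, 69.8 and 49.9 CPM against 42.4, 36.0 and 28.1 CPM (log2 fold change 1.23, SE 0.34, edgeR adjusted p = 0.0927, and 0.000363 with the block). It was far higher in library 1 than in the others. Of 13 genes of glutamate transport and metabolism, the glutamine transporter *Slc38a1* fell by 3.44. Of 27 genes of inhibitory G protein signalling, the adenylyl cyclase *Adcy9* rose by 0.57 (edgeR adjusted p = 0.315 in cells chosen after thinning) and *Adcy2* fell by 1.08 (2 rises and 6 falls with the block).

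In the remaining lists, the secretory genes that passed the test fell. Of 21 mucin and goblet genes 10 fell, 11 did not pass and none rose, with 12 falls with the block, and of 16 secretoglobins and antimicrobial genes 5 fell, 11 did not pass and none rose (1 rose and 14 fell with the block). Of 40 genes of xenobiotic conjugation and oxidation 6 fell and none rose (3 and 16 with the block). Among 42 Wnt genes 3 rose and 2 fell (7 and 14 with the block), with the inhibitors *Dkk3* and *Sfrp1* up by 0.81 and 0.78, the receptor *Lgr4* up, while *Notum* fell by 2.64 (edgeR adjusted p = 0.121 in cells chosen after thinning) and *Rspo3* fell by 2.06. Of 16 EGF receptor ligands, receptors and Lrig family genes only *Nrg4*, an ErbB4 ligand, rose, by 1.16, and none fell (3 and 3 with the block). *Cldn1* rose by 1.67 and *Cldn4* by 0.57 among 21 tight junction genes, of which 3 rose and 2 fell (4 and 3 with the block). Of 25 retinoid genes 3 fell and none rose (2 rises and 12 falls with the block). Axon guidance and synaptic adhesion genes counted 5 rises and 8 falls among 70 (12 and 21 with the block), cytokine genes 3 falls among 30 (1 rise and 11 falls with the block), and lipid mediator enzymes 1 fall, *Alox15*, among 28 (4 rises and 4 falls with the block).

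None of 29 S phase genes, 34 genes of G2 and M phases or 34 immediate early and dissociation genes passed the test in either direction. With the block 1 S phase gene and 2 genes of G2 and M fell, and 5 immediate early genes rose and 8 fell. All 13 mitochondrially encoded genes had a log2 fold change above 0 without passing, and 7 rose with the block. Markers of other cell types were counted next. Goblet (7 of 9), gland acinar (6 of 8), club (5 of 9), pericyte (4 of 8), neuroendocrine (3 of 8), satellite cell (3 of 7) and ciliated (2 of 10) markers fell and none of them rose, and markers of fibroblasts, endothelium, macrophages, *T* cells, tuft cells, ionocytes, thyroid and proliferating cells did not pass. With the block 8 of 8 fibroblast, 10 of 10 ciliated, 8 of 8 neuroendocrine, 8 of 9 club, 6 of 8 pericyte and 5 of 7 satellite cell markers fell, as did 2 endothelial, 2 thyroid, 1 tuft, 1 ionocyte and 1 proliferation marker, and 1 thyroid and 1 ionocyte marker rose. The summed levels varied between libraries in several of these lists. The 8 macrophage markers summed to 4.07 to 35.3 CPM in the *Grm8/Clca3a2* cells and to 9.41 to 70.6 CPM in the other *Epcam*-positive cells. They were higher in the *Grm8/Clca3a2* cells in library 3 only, at 35.3 against 9.41 CPM. Of 5 macrophage markers tested, the complement genes *C1qa* and *C1qc* were higher than in the *Krt13*-high cells and than in the *Krt5/Krt14*-high cells, where the sums reached at most 6.06 and 5.26 CPM. The 10 proliferation markers summed to 139.8, 5.97 and 108 CPM against 76.1, 39.8 and 172 CPM, higher in library 1 only. The 7 *T* cell markers were higher in library 3 only, at 1.96 against 0.792 CPM. The 8 endothelial markers summed to 50.2, 4.89 and 3.00 CPM against 78.2, 5.35 and 7.14 CPM, lower in each library. The part of macrophage RNA in the results was not tested.

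Against the *Krt13*-high cells, which the rule sets apart by *Krt13*, 5308 of 14314 genes passed, 37.1%, with 2331 higher (16.3%) and 2977 lower (20.8%). All 14 tested squamous markers were lower. *Krt4* stood at 545, 422 and 504 CPM in the *Grm8/Clca3a2* cells and at 1890, 1882 and 2455 CPM in the *Krt13*-high cells (log2 fold change -2.27, SE 0.17, edgeR adjusted p = 3.6e-06), the groups far apart. Of 21 desmosome and adherens junction genes 14 were lower and 2 higher, of 20 cornified envelope genes 14 lower, and of 29 stratified epithelial transcription factors 21 lower and 1 higher. Hemidesmosome genes went the other way, with 9 of 21 higher and none lower. The largest falls were of *Psca*, a surface antigen of squamous epithelium, *Cnfn* of the cornified envelope, *Gm94*, *Krt6b* and *Krt16*, with log2 fold changes of -8.35 to -6.85. *Khdrbs2* had 3 UMIs in all *Krt13*-high cells, a 340-fold lower level (95% interval of the counts 116 to 1653), and *Gm13219* and *Dio2* were higher by 6.78 and 5.10. *Gata3* was higher by 3.67 and *Pax1* by 2.90, but *Tmprss11b*, at 83.9, 102 and 108 CPM in the *Krt13*-high cells, by only 0.47 (SE 0.12, edgeR adjusted p = 0.00945).

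Against the cells high in *Krt5* and *Krt14*, 2736 of 14314 genes passed, 19.1%, with 1322 higher (9.24%) and 1414 lower (9.88%), and 4892 passed with the block. *Krt19* stood at 589, 546 and 677 CPM in the *Grm8/Clca3a2* cells and at 73.6, 66.4 and 99.8 CPM in the *Krt5/Krt14*-high cells (log2 fold change 2.86, SE 0.20, edgeR adjusted p = 8.1e-06). *Krt8* was higher by 1.54 and *Pax1* by 3.91, and 10 of 19 tight junction genes were higher and 1 lower. Replication genes were lower, with 18 of 29 S phase genes below and none above. *Krtdap*, *Lgals7* and *Spink5*, genes of squamous differentiation, *Gm94* and the chitinase *Chit1* had the largest falls, with log2 fold changes of -5.35 to -4.19, and *Khdrbs2*, *5430427M07Rik*, *Gm26512*, *Gm13219* and *Dio2* the largest rises, of 6.43 to 5.08. Hemidesmosome genes did not rise here, and 4 of 21 were lower, *Col17a1* among them (3 higher and 5 lower with the block).

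Against the *Sult1b1*+ cells 1285 of 14314 genes passed, 8.98%, with 521 higher (3.64%) and 764 lower (5.34%), and 2593 passed with the block. The *Grm8/Clca3a2* cells were higher in 7 of 10 basal markers and 12 of 21 hemidesmosome genes, with none lower in either list. *Trp63* stood at 218, 319 and 395 CPM in the *Sult1b1*+ cells, below every library of the *Grm8/Clca3a2* cells (log2 fold change 1.20, SE 0.24, edgeR adjusted p = 0.0084). Of 19 mucin and goblet genes 11 were lower, and of 36 xenobiotic genes 17 lower and 1 higher. The trefoil peptide gene *Tff1*, the lipoxygenase gene *Alox15*, *Scgb1a1*, *Muc5b* and *Pigr*, the receptor that carries antibodies across epithelium, fell most, with log2 fold changes of -6.95 to -4.81. *Synpo2* was higher by 3.73, *Gata3* by 2.50, *Pax1* by 1.52 and *Tmprss11b* by 0.87. Ciliated markers, of which 8 of 10 were higher in the *Grm8/Clca3a2* cells than in the *Krt13*-high and in the *Krt5/Krt14*-high cells, counted 1 of 10 lower and none higher against the *Sult1b1*+ cells (4 lower with the block).

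Some *Grm8/Clca3a2* cells carried genes of motile cilia. At least 5 of the 10 ciliated markers were detected in 4, 3 and 14 cells of the 3 libraries, 1.66% of all 1267. The share was 1.45% in the *Grm8*-only cells, 5.95% in the cells with neither and 15.1% in the *Clca3a2*-only cells. Summed, the ciliated markers reached 237, 260 and 114 CPM in the *Grm8/Clca3a2* cells, 119, 108 and 106 CPM in the *Grm8*-only cells and 3804, 2883 and 1201 CPM in the *Clca3a2*-only cells. The part of these cells in the other differences was not tested.

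The *Grm8/Clca3a2* cells differed among themselves with the number of UMIs of the 2 genes. *Synpo2* stood at 40.1 ± 7.08 CPM (SD, n = 3) in the 101 cells with a single UMI of each, at 58.7 ± 18.8 CPM in the 468 cells with a single UMI of 1 of them and at 105 ± 0.344 CPM in the 698 cells with at least 2 of both. *Tmprss11b* rose over the same classes from 68.7 ± 23.5 to 131 ± 15.8 and 182 ± 16.3 CPM. *Gata3* stood at 53.9 ± 24.6, 92.1 ± 11.6 and 96.8 ± 19.9 CPM, so that the upper classes did not differ beyond their spread, and *Pax1*, at 49.0 ± 12.4, 68.4 ± 20.9 and 56.1 ± 20.4 CPM, showed no order. Median UMIs per cell were 14473, 15988 and 18090 in the 3 classes, the lowest where both genes stood at 1 UMI. These are descriptions, since *Grm8* and *Clca3a2* chose the cells.

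Their keratin level sorted other genes as well. In terciles of the cells by *Krt5* and *Krt14*, cut at 8.35 and 15.7 UMIs per 10000, *Trp63* stood at 595 ± 114, 732 ± 42.8 and 925 ± 84.6 CPM (SD, n = 3) from the lowest to the highest tercile, and *Col17a1*, a collagen of hemidesmosomes, at 246 ± 32.8, 299 ± 28.4 and 386 ± 4.91 CPM. *Krt19* ran the other way, at 722 ± 128, 641 ± 92.8 and 440 ± 43.2 CPM. *Gata3* was at 101 ± 25.6 and 104 ± 23.0 CPM in the lower terciles and at 67.9 ± 18.6 CPM in the highest, and in each library the highest tercile was below the others. *Tmprss11b* was at 178 ± 14.8, 163 ± 16.1 and 125 ± 17.2 CPM. Over all *Epcam*-positive cells, *Grm8* peaked at 117 ± 9.38 CPM among cells with 5 to 10 UMIs of *Krt5* and *Krt14* per 10000 and fell to 7.47 ± 3.01 CPM among cells with 80 or more. *Gata3* did likewise, with 27.5 ± 6.37 CPM and 1.58 ± 2.11 CPM, while *Tmprss11b* stood at 66.2 ± 4.43 and 53.9 ± 18.9 CPM. Between these bins *Tmprss11b* fell in libraries 1 and 3 and rose in library 2, and its lowest mean, 37.2 ± 10.8 CPM, was among cells with under 5 UMIs of *Krt5* and *Krt14* per 10000.

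**Figure D4:**
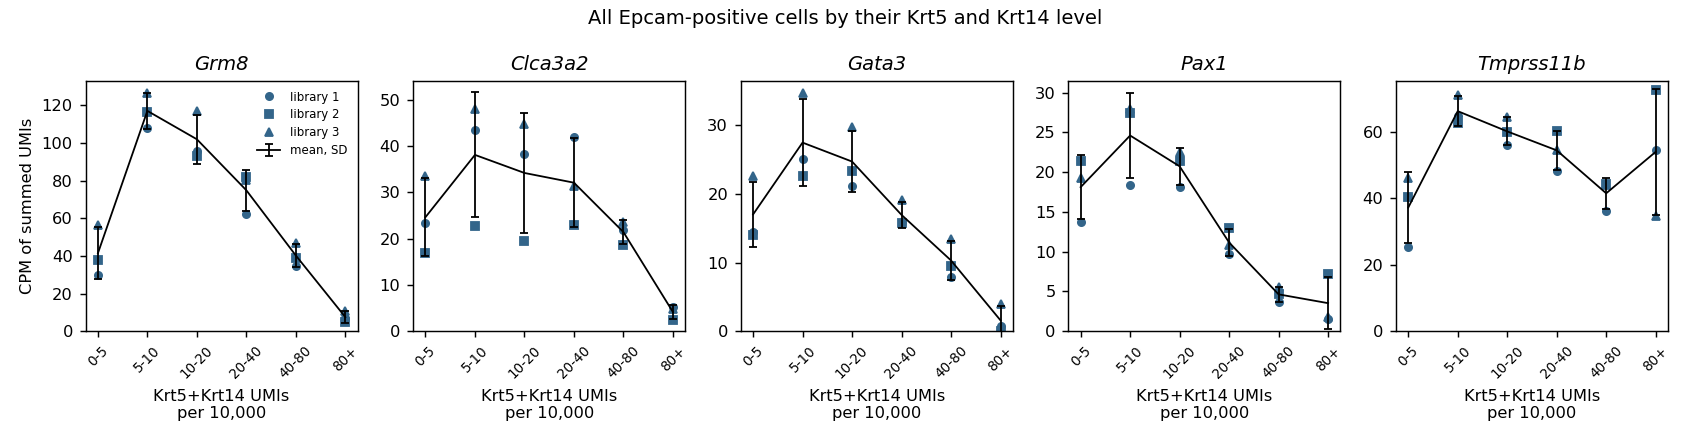
The x axis sorts all *Epcam*-positive cells by their UMIs of *Krt5* and *Krt14* per 10000 UMIs, and the y axis gives the level of 5 genes in CPM of the summed UMIs, with points for the 3 libraries and a line for their mean with SD. *Grm8*, *Clca3a2*, *Gata3* and *Pax1* were highest at 5 to 10 UMIs per 10000 (117, 38.1, 27.5 and 24.6 CPM on average) and low at 80 or more.

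Clustering of the *Epcam*-positive cells without the rule's genes showed how far the *Grm8/Clca3a2* cells lay together. At resolution 1, with 30 clusters, the cluster richest in them held 53.0%, 38.6% and 57.3% of those of libraries 1, 2 and 3 (49.7% ± 9.78, SD, n = 3) and on average 5.07% of the other *Epcam*-positive cells. They made up 30.9% of that cluster. Among the 30 nearest neighbours of a *Grm8/Clca3a2* cell, 24.2% ± 4.27 were *Grm8/Clca3a2* cells, against 3.46% around other cells, and 28.1% ± 1.64 were *Grm8*-only cells, against 11.7%. Cells with neither gene made up 25.5% of their neighbours, against 58.7% around other cells, and *Krt13*-high cells 1.1%, against 3.63%. *Clca3a2*-only cells made up 8.22%, against 5.14%. Most neighbours of the cells that the rule picked were thus outside the rule, some with 1 of the 2 genes and others with neither.

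*Lrig1*, whose locus drove the label, was detected in 73.3%, 79.0% and 73.7% of the *Grm8/Clca3a2* cells and in 51.2%, 65.4% and 58.9% of the other *Epcam*-positive cells. The difference of 16.8 ± 4.61 percentage points (SD, n = 3) was positive in 3 of 3 libraries, and an exact sign-flip permutation test over 3 libraries cannot give a p below 0.25. With cells thinned to 5000 UMIs it was 8.01 ± 4.53 points, at 40.8% and 32.7%, and with cells thinned to 2000 UMIs 3.35 ± 1.04 points. Against the *Krt5/Krt14*-high cells the thinned difference at 5000 UMIs was 20.6 ± 2.01 points, against the *Krt13*-high cells 15.9 ± 8.94 points and against the *Sult1b1*+ cells 2.03 ± 6.74 points. From the *Grm8*-only cells the *Grm8/Clca3a2* cells differed by 4.54 ± 3.57 points in full counts, higher in 3 of 3 libraries, and by -0.769 ± 1.99 points with cells thinned to 5000 UMIs, higher in 1 of 3 and less than the spread. In full counts the share in the *Grm8/Clca3a2* cells differed from that in the *Sult1b1*+ cells by -0.745 ± 3.43 points, higher in 1 of 3 libraries. In CPM, *Lrig1* stood at 120, 107 and 112 in the *Grm8/Clca3a2* cells and at 77.3, 83.8 and 95.9 in the cells with neither gene. Near the *Grm8/Clca3a2* cells were the *Grm8*-only cells, at 109, 108 and 120, and the *Sult1b1*+ cells, at 98.4, 112 and 114.

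**Figure D5:**
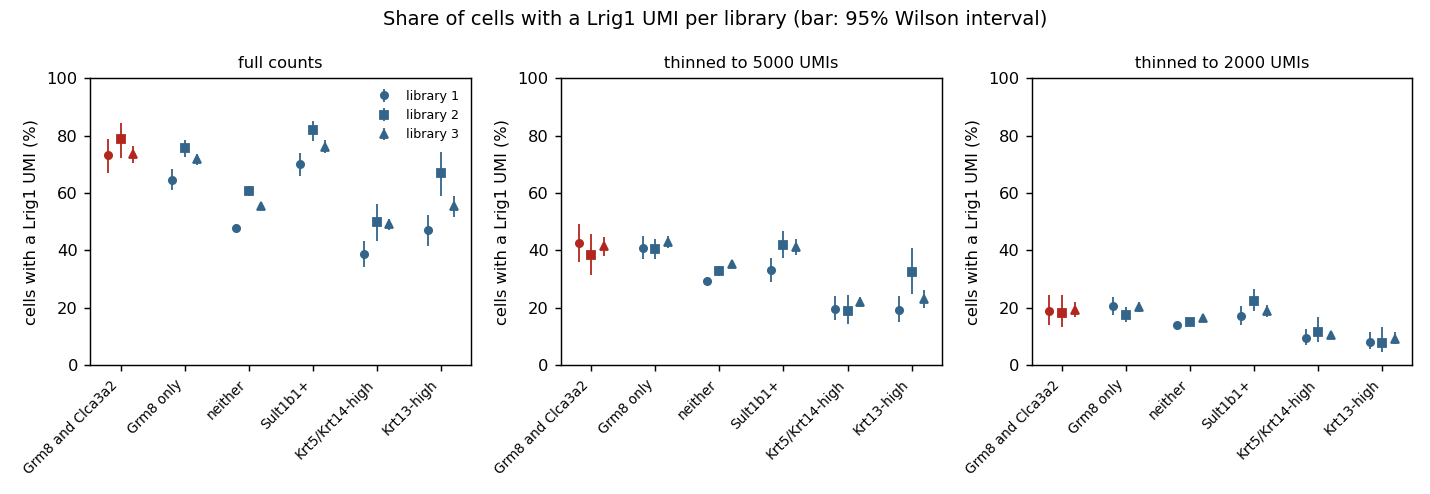
The y axis gives the percentage of cells with at least 1 *Lrig1* UMI in each library, with 95% Wilson intervals, for 6 groups of *Epcam*-positive cells, from full counts and from cells thinned to 5000 and 2000 UMIs. In full counts the *Grm8/Clca3a2* cells (red) sit between 73.3% and 79.0% and the *Sult1b1*+ cells between 70.1% and 81.9%. In thinned counts the *Grm8/Clca3a2* cells overlap the *Grm8*-only cells.

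The study compared cells with and without detected *Lrig1*, and the same split was made among the *Grm8/Clca3a2* cells, 942 with a *Lrig1* UMI and 325 without. Of 11718 genes tested none passed (0%). At an unadjusted p under 0.05 there were 465 genes by edgeR, and DESeq2 called 47. With the library as a block edgeR called 74 genes (0.632%), 63 higher and 11 lower in the *Lrig1*+ cells. The largest rises of that blocked fit were of *Rp1*, *Rgs22*, *Agbl4*, *Spag16* and *Cfap54*, genes of cilia and their microtubules, by 4.35 to 3.41. *Rp1* stood at 25.5, 41.5 and 10.7 CPM in the *Lrig1*+ cells and at 0, 1.44 and 0.897 CPM in the *Lrig1*- cells. At least 5 ciliated markers were detected in 18 of 942 *Lrig1*+ and 3 of 325 *Lrig1*- cells, and the summed ciliated markers reached 293, 313 and 132 CPM against 24.7, 33.1 and 49.6 CPM.

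The largest falls of the blocked fit were of *Dock4*, *Tll1*, *Gm56555*, *Ly6c1* and *Sparc*, with log2 fold changes of -1.68 to -0.98. *Sparc*, a matrix protein, stood at 34.1, 17.7 and 64.0 CPM against 96.1, 56.1 and 91.2 CPM. The *Lrig1*+ cells were deeper, with median UMIs of 18120, 21168 and 17570 against 12301, 18290 and 13939.5. With cells drawn to the same UMIs none passed without the block and 2 passed with it, both lower in the *Lrig1*+ cells. That draw kept only 303 cells in each group (48, 37 and 218 per library), and 8725 genes were tested. The part of the ciliated cells, of depth and of the smaller number of cells in these calls was not tested otherwise. *Gata3*, *Pax1* and *Tmprss11b* had log2 fold changes of -0.07, 0.17 and -0.08, each with an edgeR adjusted p of 1 and an SE of 0.19, 0.30 and 0.12.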

How the data were processed

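Single-cell RNA of 3 libraries of sorted laryngeal cells was analysed. Per the labels and the study's methods, GEM-X 3′ v4 libraries were aligned to mm39 with Cell Ranger 8.0.1, and the authors deposited whole-number UMI counts per gene and barcode, without normalization. The study's own cell limits and doublet removal are not applied in the deposited counts. The cells, gene lists and markers were chosen with earlier results of these data known.

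Counts were summed per library and group of cells and tested with edgeR 4.0.16 (quasi-likelihood, TMM, filterByExpr, two-sided, R 4.3.3, limma 3.58.1), without the 10 genes of the rule. The libraries gave 3705348, 3682271 and 15329240 UMIs in *Grm8/Clca3a2* cells. A first fit was of 2 groups, a second of 4 groups for the *Krt13*-high, *Krt5/Krt14*-high and *Sult1b1*+ cells. Since groups of 1 library share a pool of animals, the library is also given as a block. Deviations from the group means correlated by 0.217, 0.314 and 0.228 in the 3 libraries. Alternatives were DESeq2 1.42.0, no filter, leaving out each library, removal of barcodes of high doublet scores (0.4% per 1000 barcodes), thinning, and other limits. The scripts were checked on simulated data. Clusters used scanpy 1.11.5 (2000 variable genes, 15 components, 15 neighbours, Leiden). Intervals cover counting error only.

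Named genes were the 3 markers, the 10 largest rises and falls among called genes that averaged 10 CPM or more and had 1 direction in all libraries, up to 4 called genes per list, all Clca, glutamate receptor and Tmprss genes of at least 1 CPM, and the 5 largest rises and falls of each other comparison. Besides these, called genes of a list, *Trp63*, keratins, *Notch1* and the 8 genes of the summed classes were named after their values were seen. The 52 features sharing a symbol were kept apart by identifier. A few named genes are not reported here.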

Additional observations from a re-analysis of the deposited data

How the results depend on the processing

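Against the other *Epcam*-positive cells 788 genes passed, and 3188 with the replicate block, 1811 with DESeq2, 1365 without barcodes of high doublet scores and 1989 against cells of the same keratin limits with neither gene. Leaving out each library gave 44 to 279. Comparison cells drawn to the same depth gave 706 and the gate set after thinning 892, and under that gate 20 of 92 named calls did not pass and all 92 kept their direction. Among the 20 were *Cxcl13* (log2 fold change -6.17, edgeR adjusted p = 0.105), *Scg2* (-11.32, 0.087), *Ivl* (1.61, 0.148), *Notum* (-9.17, 0.121), *Frem2* (0.63, 0.104) and *Krt19* (0.34, 0.25). With 2 pairings chosen after seeing the data, depth-drawn cells with the block gave 2786 and the thinned gate with the block 2168. The log2 fold change of *Krt6a* reversed to 0.0612 against the cells with neither gene. Leaving out a library gave 3061 to 3413 calls in place of 5308 against *Krt13*-high cells, 751 to 1432 in place of 2736 against *Krt5/Krt14*-high cells and 322 to 1055 in place of 1285 against *Sult1b1*+ cells, the lowest values without library 1, 1 and 2, and the block gave 7002, 4892 and 2593. Without barcodes of high doublet scores these 3 counts were 5039, 2865 and 1452. Between *Lrig1*+ and *Lrig1*- cells the block gave 74, DESeq2 47, no filter on low counts 257 and leaving out a library 0 to 36 (36 without library 3). The block with cells drawn to the same UMIs, chosen after seeing the data, gave 2 from 303 cells a group. The thinned gate gave a share of 2.13%. Thinning to 5000 and 2000 UMIs gave *Lrig1* differences of 8.01 and 3.35 points, and thinning to 5000 UMIs gave marker differences of 25.4 points for *Gata3*, 15.5 for *Pax1* and 31.1 for *Tmprss11b*. At Leiden resolution 2 the richest cluster held 32.5% of the cells. The cause of these moves was not tested, except that leaving out a library leaves fewer samples. The cells of 1 condition and 3 pools limit what the tests can show, and shares of cells with a UMI rest on depth.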
